A study of Mus musculus with 6 samples.

Results

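Ectonucleotidases and nucleotide pyrophosphatases are enzymes, most of them anchored at the cell surface, that break down nucleotides outside cells. The members described here are Enpp1, Enpp2, Enpp3, Enpp4, Enpp5, Entpd1, Entpd5 and Nt5e, and they were chosen by gene symbol with earlier results of the same arrays known, above all the lower Enpp3 signal in LIGHT Tg livers. Among the 8 genes, 6 were matched to 20 probe sets among 45037 non-control probe sets. Enpp1 and Enpp2 were matched to none and were not analysed here. The values that drew attention to the family are therefore a description, and no p-value is given for the members between the genotypes.

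Whole liver from 6 samples of mice aged 4 to 8 weeks was profiled on 1 Affymetrix array each, after 2 weeks on the high-fat diet TD88137. The 3 wild-type mice (WT) were of the B6 strain, and the other 3 carried a LIGHT transgene (LIGHT Tg). LIGHT, encoded by Tnfsf14, is a ligand of the tumour necrosis factor family. No strain is named for the LIGHT Tg mice, and no source used here gives the promoter that drives the transgene, so genetic background and transgene cannot be told apart. The free-text description of every sample names wild-type mice, and the genotypes were taken from titles and source names instead. No source used here says that each sample is a separate animal, so the errors measure the spread between these samples, which may be technical.

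Extracellular ATP and ADP act as danger and signalling molecules on P2 receptors, and the chain of surface enzymes that removes them ends in adenosine, which acts on its own receptors. ENTPD enzymes such as CD39 (Entpd1) cut ATP and ADP to AMP, and CD73 (Nt5e) turns AMP into adenosine. Some ENPP enzymes, ENPP3 among them, cut ATP to AMP and pyrophosphate, while other members of that family have other substrates. In liver these enzymes are spread over the bile canalicular membrane of hepatocytes, the endothelium, Kupffer cells and portal fibroblasts.

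The promoters of Enpp3 and Nt5e are shown because these genes had the largest differences in opposite directions. Each sequence is the 250 bases before the RefSeq start, 5′ to 3′, from the mouse assembly GRCm38.p6. Capitals mark matches on either strand to the TATA box TATAAA, the CCAAT box CCAAT, the GC box GGGCGG, the forkhead motif TGTTTNC, the HNF1 half-site GTTAAT or the NF-kappaB pattern GGGNNNNNCC, and matches that overlap run together.
Enpp3 promoter, chr10:24836196-24836445, minus strand: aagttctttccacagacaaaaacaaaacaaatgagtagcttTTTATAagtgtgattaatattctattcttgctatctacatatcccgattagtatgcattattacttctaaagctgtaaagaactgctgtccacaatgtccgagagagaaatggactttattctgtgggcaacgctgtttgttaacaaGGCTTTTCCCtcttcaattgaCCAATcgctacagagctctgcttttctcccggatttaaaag
Nt5e promoter, chr9:88327359-88327608, plus strand: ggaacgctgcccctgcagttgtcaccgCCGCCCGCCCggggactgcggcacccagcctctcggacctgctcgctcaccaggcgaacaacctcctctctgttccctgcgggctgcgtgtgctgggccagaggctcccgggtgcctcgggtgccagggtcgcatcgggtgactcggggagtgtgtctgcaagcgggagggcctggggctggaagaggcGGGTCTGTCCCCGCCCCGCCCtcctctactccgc

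The Enpp3 window was AT-rich, with 36.8% G or C and 5 CpG dinucleotides, against a median of 52.4% and 6 over 32851 RefSeq promoter windows of the same length. The Nt5e window had 72.0% G or C and 21 CpG dinucleotides, and 93.1% of windows had a lower G or C content. Enpp3 held a CCAAT box 41 to 37 bases before the start, a match that 33.8% of windows share. It also held a reverse TATA box 209 to 204 bases before the start, as 12.4% of windows do on either strand. The NF-kappaB pattern was present in both genes and in 45.8% of all windows. Nt5e held 4 GC boxes on the reverse strand, 2 of them within 24 bases of the start, and 32.7% of windows held at least 1. Neither window held the forkhead motif (17.8% of windows) or the HNF1 half-site (6.4%) as spelled above. Other spellings of these motifs were not searched. Windows were present for 6 of the 8 members, Enpp2 and Enpp5 being those without. These matches are letters in a window and not tested binding sites.

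Enpp3 signals were far lower in every LIGHT Tg liver at 3 of its 5 probe sets. The falls were 8.35-fold and 5.39-fold at the 2 whose LIGHT Tg signals stayed above the filter on low values. Enpp5 signals were 2.07-fold lower in LIGHT Tg. Nt5e signals were higher in every LIGHT Tg liver at its 2 tested probe sets, by 7.85-fold at 1428547_at. Neither of the 2 passed the threshold of the fit. The log2 difference at 1428547_at was 2.97, and 2.23 without WT 1, the lowest WT array there. Enpp4, Entpd1 and Entpd5 had smaller differences, and none of these passed either. The fit, limma on log2 signals, covered 22519 probe sets whose mean log2 signal was at or above the median, and a call is an adjusted p under 5% false discovery rate (FDR). In it 4 of the 14 tested member probe sets were called, all 4 lower in LIGHT Tg, where 1.17% of all tested probe sets were called, 0.457% lower and 0.715% higher. The sample titles number the arrays in sets, 77 and 78 or 30 to 35, each with both genotypes. With this title-number set as a block 6 of 14 were called, 4 lower and 2 higher, against 6.47% of all. Because the members were chosen with this contrast known, nothing is read from these counts.

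Enpp3 encodes a membrane enzyme that cuts extracellular ATP and nucleotide sugars, and it is also the basophil and mast cell surface marker CD203c. At 1427302_at the signals were 1677, 2255 and 2125 in WT 1 to 3 and 182.8, 311.1 and 242.6 in LIGHT Tg 1 to 3. The groups were far apart, and the highest LIGHT Tg value lay well below the lowest WT value. The mean log2 signal was 10.97 ± 0.226 in WT and 7.91 ± 0.384 in LIGHT Tg (SD, n = 3 per group), so that Enpp3 fell by 3.06 ± 0.243 on the log2 scale (SE). Over 17 settings of the fit the difference lay between -3.25 and -2.87.

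At 1452384_at the WT signals were 1787, 1221 and 1223, and the LIGHT Tg signals were 201.6, 323.4 and 261.5. Again no LIGHT Tg value reached the WT range, and the log2 difference was -2.43 ± 0.252. Its call was lost without LIGHT Tg 3. At 1439260_a_at the signals were 1810, 1286 and 1468 in WT and 39.41, 121.7 and 110.9 in LIGHT Tg, a log2 difference of -4.22 ± 0.437. All 3 LIGHT Tg values of this probe set lay under the filter signal of 167.4, so it was tested because its WT signals were high, and the size of its fall is not well measured. The log2 difference was -3.66 with an offset added before log2 and -3.56 in the arrays titled 30 to 35 alone. Without WT 3 this call was lost.

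The other 2 Enpp3 probe sets did not follow. At 1425353_at the signals were 221.9, 222.6 and 219.9 in WT and 195.4, 210.3 and 203.2 in LIGHT Tg. These groups did not overlap either, but the log2 difference was -0.13 ± 0.215 and did not pass. The signals of 1427303_at were 77.05, 126.4 and 93.15 in WT against 76.32, 119.8 and 120.9 in LIGHT Tg. They overlapped and lay below the filter, and the fit with no filter gave a log2 difference of 0.09 ± 0.400. The annotation table gives 1427302_at, 1452384_at and 1427303_at the same source sequence, so they are not independent, and 2 of them fell while 1 did not. No source used here says which Enpp3 transcripts each probe set reads.

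**Figure D1:**
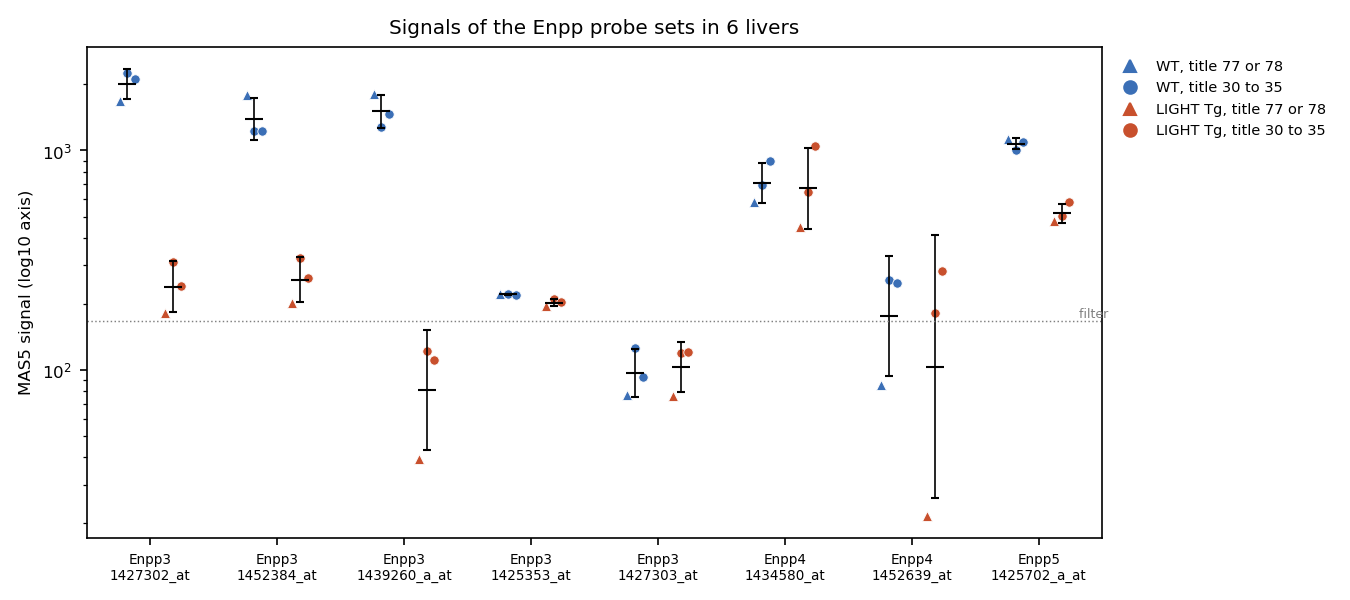
MAS5 signal (log10 axis) of the 8 Enpp probe sets in 3 WT (blue) and 3 LIGHT Tg (orange) arrays, triangles for the arrays titled 77 and 78 and circles for those titled 30 to 35; the black marks are the mean log2 signal ± SD and the dotted line is the filter signal of 167.4. At 3 Enpp3 probe sets and at Enpp5 the orange points lie well below the blue ones, while 1425353_at and 1427303_at of Enpp3 stay near level.

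Enpp5 is a membrane member of the same family whose substrates are less well known. Its probe set 1425702_a_at had signals of 1130, 1004 and 1092 in WT and 477.0, 501.9 and 579.7 in LIGHT Tg. Every LIGHT Tg signal was below every WT signal, and values within a genotype lay close together. The mean log2 signal was 10.07 ± 0.0879 in WT and 9.02 ± 0.146 in LIGHT Tg (SD, n = 3 per group), so that Enpp5 fell by 1.05 ± 0.166 (SE). The call was lost whichever single array was left out, with no filter and without the variance trend, while the difference stayed between -1.13 and -0.96 over 17 settings.

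Enpp4 encodes an endothelial surface enzyme that cuts diadenosine triphosphate. At 1434580_at its signals were 582.4, 694.0 and 891.0 in WT and 449.5, 648.5 and 1047 in LIGHT Tg. The groups overlapped fully, and the log2 difference was -0.08 ± 0.330. Its other probe set, 1452639_at, lay below the filter, with 85.39, 257.8 and 248.0 in WT and 21.63, 182.6 and 282.4 in LIGHT Tg. Both Enpp4 probe sets were lowest on the WT 1 and LIGHT Tg 1 arrays within each genotype.

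Nt5e encodes CD73, the enzyme that makes adenosine from AMP at the cell surface. At 1428547_at its signals were 223.7, 1045 and 1046 in WT and 4795, 5003 and 4937 in LIGHT Tg. The LIGHT Tg values were almost equal, while WT 1 lay far below WT 2 and WT 3. The mean log2 signal was 9.29 ± 1.28 in WT and 12.26 ± 0.0314 in LIGHT Tg (SD, n = 3 per group), a log2 difference of 2.97 ± 0.566 (SE). At 1422974_at the WT signals were 42.64, 414.4 and 241.3 and the LIGHT Tg signals were 1324, 2281 and 1535, a log2 difference of 3.36 ± 0.771. The WT mean log2 signal of 1422974_at, 7.34, lay under the filter, so it was tested through its LIGHT Tg signals, and the difference was 2.98 with the offset. At neither probe set did the groups overlap. Neither passed in the fit of 6 arrays without a block, but 1428547_at did when the filter was set at the 75th percentile. Both were called with the block, with array weights, in the arrays titled 30 to 35 alone, and without WT 1, where the log2 differences were 2.23 and 2.40. In all, 1428547_at was called in 5 of 17 settings and 1422974_at in 4 of 17. Because the members were chosen with this contrast known, nothing is read from these calls. The remaining probe set, 1459023_at, lay below the filter, with 38.23, 71.5 and 67.04 in WT and 46.58, 197.6 and 169.2 in LIGHT Tg, and its groups overlapped.

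Entpd1 encodes CD39, the ATP and ADP hydrolase of endothelium and Kupffer cells. At 1423326_at its signals were 292.1, 358.4 and 402.3 in WT and 358.8, 361.9 and 401.7 in LIGHT Tg. The ranges overlapped, and the log2 difference was 0.10 ± 0.203. Its other probe sets, 1453586_at and 1450939_at, were below the filter, with signals between 14.21 and 151.2 and log2 differences of 0.00 ± 0.737 and 0.14 ± 1.0.

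Entpd5 encodes a nucleoside diphosphatase of the endoplasmic reticulum that hydrolyses UDP and takes part in glycoprotein folding. All 5 of its tested probe sets had negative log2 differences, between -0.94 and -0.12, and none passed. At 1417382_at the signals were 3963, 5144 and 3952 in WT and 5814, 3382 and 3162 in LIGHT Tg. LIGHT Tg 1 was the highest of the 6 arrays there, and LIGHT Tg 2 and 3 were the lowest. At 1433763_at the WT signals were 1558, 1461 and 1258 and the LIGHT Tg signals were 1406, 726.4 and 394.9, a log2 difference of -0.94 ± 0.423. Here LIGHT Tg 1 lay within the WT range and LIGHT Tg 2 and 3 below it. Of the 5, 1417383_at alone had every LIGHT Tg value below every WT value, with 1357, 1113 and 1000 against 1431, 1689 and 1368. The values of 1417384_at were 2889, 3653 and 3283 in WT and 3044, 2163 and 2330 in LIGHT Tg, and those of 1451765_a_at were 1465, 2505 and 1699 against 1773, 1549 and 1534. Both overlapped, with log2 differences of -0.39 ± 0.178 and -0.19 ± 0.221. The last probe set, 1458677_at, was below the filter, with 301.4, 130.2 and 111.1 in WT and 245.1, 107.0 and 86.6 in LIGHT Tg.

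Over the 14 tested probe sets, 8 had groups that did not overlap, 6 with LIGHT Tg below WT and 2 above, where 17.4% of all tested probe sets did not overlap, 9.19% below and 8.17% above. The median log2 difference of the 14 was -0.29, against -0.01 over all probe sets tested. The members were chosen with this contrast known, so nothing is read from this count or this median. Of the 14, 4 were annotated to Enpp3 and 5 to Entpd5, so they are not independent. The 8 also include an Enpp3 and an Nt5e probe set that were tested through the high signals of a single genotype.

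**Figure D2:**
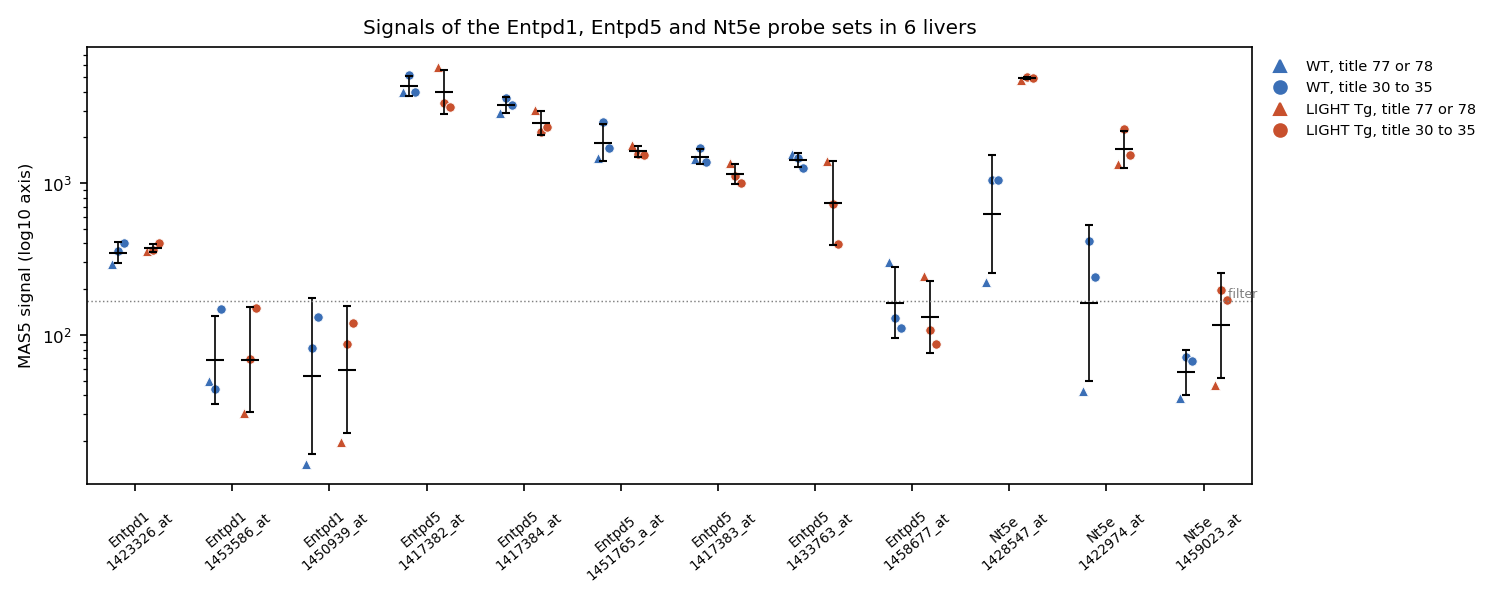
MAS5 signal (log10 axis) of the Entpd1, Entpd5 and Nt5e probe sets in the same 6 arrays, with symbols, mean log2 ± SD and filter line as in the plot of the Enpp signals. The orange Nt5e points at 1428547_at sit between 4795 and 5003 and the blue ones between 223.7 and 1046, while the Entpd1 points overlap.

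In the title-number sets, WT 1 and LIGHT Tg 1 are titled 78 and 77 (the pair), and the other arrays are titled 30, 31, 34 and 35 (the others). No source used here says what the numbers mean. The pair had the Y-linked gene Eif2s3y at 1037 and 1272 and Xist at 444.0 and 406.6, against at most 2.82 and at least 7993 in the others, a male and a female pattern. The 5' 18S ribosomal RNA control was 243.4 and 196.4 in the pair and at least 17440 in the others, so sex and array handling cannot be told apart between the sets. Trimmed mean signals lay between 490.0 and 505.1 on the 6 arrays.

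Within each set the genotype differences had the same direction at the 3 lower Enpp3 probe sets, at Enpp5 and at the 2 tested Nt5e probe sets. The groups of these probe sets did not overlap over the 6 arrays, so no other direction was possible and nothing is read from it. The pair also holds a single array of each genotype. For these Enpp3 probe sets the log2 differences in the pair and in the others were -3.20 and -2.99 at 1427302_at, -3.15 and -2.07 at 1452384_at, and -5.52 and -3.56 at 1439260_a_at. Enpp5 had -1.24 in the pair and -0.96 in the others. Nt5e had 4.42 and 2.25 at 1428547_at, and 4.96 and 2.56 at 1422974_at. For Entpd5 the pair gave 0.55, 0.08, 0.27, -0.08 and -0.15 at 1417382_at, 1417384_at, 1451765_a_at, 1417383_at and 1433763_at, and the others gave -0.46, -0.63, -0.42, -0.53 and -1.34. All 5 Entpd5 differences were thus negative in the others and 2 of 5 in the pair.

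Whether the genotype difference itself differed between the sets was tested with an interaction term, which leaves 2 residual degrees of freedom. In limma 0 of the 14 member probe sets passed, and 6 had an unadjusted p under 0.05, as did 11.0% of all tested probe sets. After adjustment 0.0666% of all tested probe sets passed, 0.0533% with a positive and 0.0133% with a negative term. Nt5e at 1428547_at was nearest, with a difference between the sets of 2.17 ± 0.206 (SE, adjusted p = 0.0558 by limma over all probe sets), and 0.0459 with robust fitting. The LIGHT Tg signals of the sets were alike there, and WT 1 was the low value. Enpp3 at 1439260_a_at had -1.96 ± 0.297 (limma adjusted p = 0.100), and Entpd5 had 0.45 to 1.19 with limma adjusted p between 0.270 and 0.611. A genotype difference that differs between the sets was therefore not shown for any member without robust fitting.

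**Figure D3:**
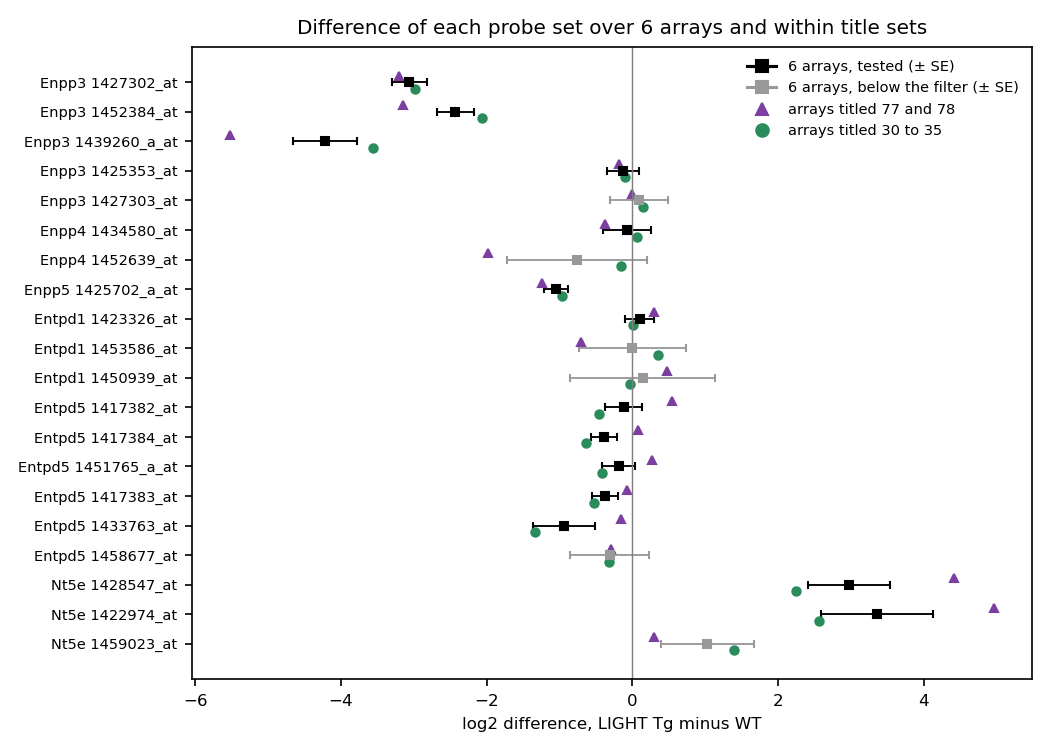
Log2 difference LIGHT Tg minus WT of all 20 member probe sets; squares with bars are the fit of 6 arrays ± SE (black where tested, grey below the filter), triangles are the difference in the arrays titled 77 and 78 and circles that in the arrays titled 30 to 35. Enpp3 at 3 probe sets and Enpp5 lie left of 0 and Nt5e right of 0 in both sets. Where the groups did not overlap over the 6 arrays, no other direction was possible. At these Enpp3 probe sets and at 1428547_at and 1422974_at of Nt5e the triangles lie farther out than the circles.

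The contrast between the title-number sets was not used to choose the members, so it was tested. In the limma fit with genotype and set, 1 of 14 tested member probe sets passed, where 27.4% of all tested probe sets passed, 11.7% higher and 15.7% lower in the pair. Nt5e at 1422974_at was lower in the pair by a log2 difference of -1.70 ± 0.514 (SE, adjusted p = 0.0473), and by -1.32 with the offset. This probe set entered the test through its LIGHT Tg signals, and WT 1 was low enough that the size is not well measured. Its signal was 42.64 in WT 1 against 414.4 and 241.3 in the other WT arrays, and 1324 in LIGHT Tg 1 against 2281 and 1535. Without WT 1 the difference was -0.50 (limma adjusted p = 0.402), and the call was also lost without WT 2, WT 3 or LIGHT Tg 2, with no filter, without the trend, and with robust fitting, array weights or the set alone.

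At 1428547_at of Nt5e the set difference was -1.14 ± 0.418 (limma adjusted p = 0.0812). Enpp3 at 1427302_at had -0.49 ± 0.156 (0.0556) and Enpp4 at 1434580_at had -0.65 ± 0.233 (0.0742), each lower in the pair within both genotypes and not past the threshold. For Enpp5 the set difference was -0.03 ± 0.146 and for Entpd1 at 1423326_at it was -0.23 ± 0.163, with limma adjusted p of 0.879 and 0.315. The 5 Entpd5 probe sets had between -0.15 and 0.80, the last at 1433763_at with a limma adjusted p of 0.107. Among the 6 below the filter, in the fit with no filter, 1450939_at of Entpd1 (-2.62 ± 0.429) and 1452639_at of Enpp4 (-2.48 ± 0.454) were lower in the pair and 1458677_at of Entpd5 (1.34 ± 0.258) was higher, with limma adjusted p of 0.0118, 0.0161 and 0.0185. In that fit 3 of 20 member probe sets passed, and 7342 of all 45037 did. Signals in the pair were as low as 14.21 at 1450939_at and 21.63 at 1452639_at, so these sizes are not well measured.

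Other genes of extracellular nucleotide, adenosine, pyrophosphate and lysophosphatidic acid handling were listed by role. Of 68 entries 59 were matched and 41 had a tested probe set, and the 1 with the highest mean was used for each gene. Between the genotypes 0 of 41 passed in limma and 5 had an unadjusted p under 0.05, as did 11.9% of all tested genes. After adjustment 1.36% of all tested genes passed, 0.839% higher and 0.519% lower. The median log2 difference was 0.02, with a range from -0.60 to 1.37, against -0.01 over all 11563 genes. With the block 3 passed, where 7.15% of all genes did, and these 3 were named after their values were seen. Panx1, a channel that releases ATP from cells, had signals that differed by 1.37 ± 0.281 (limma adjusted p = 0.0861, and 0.0213 with the block), 2.00 in the pair and 1.05 elsewhere. The WT mean log2 signal of Panx1, 7.11, lay under the filter of 7.387, so Panx1 was tested through its LIGHT Tg signals. The size of its difference is therefore not well measured. Plpp3, a surface phosphatase that degrades lysophosphatidic acid, had 0.48 ± 0.182 (limma adjusted p = 0.385, and 0.0385 with the block). Dpp4, a surface peptidase, had -0.59 ± 0.158 (limma adjusted p = 0.183, and 0.0488 with the block).

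By role, 0 of the 9 other ecto-enzymes passed without the block, and their median log2 difference was 0.08. Entpd8, the NTPDase of the bile canaliculus, had 0.16 ± 0.170, and Entpd2, the NTPDase of portal fibroblasts, had 0.04 ± 0.421. The 7 tested nucleotide receptors had differences between -0.19 and 0.33 and a median of 0.00. Of the adenosine receptors Adora3 alone was matched, and it was below the filter, so the receptors of the product of Nt5e were not tested. The 10 genes of nucleoside transport and purine enzymes had a median of -0.09, the 4 of nucleotide release 0.26, the 6 of pyrophosphate and mineral balance -0.12 and the 5 of lysophosphatidic acid handling -0.01.

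Between the title-number sets 10 of these 41 genes passed, 6 higher and 4 lower in the pair, where 25.0% of all tested genes passed, so the share is near the background. The 8 with the largest statistics follow, each with the log2 difference of the pair from the others. Alpl, the phosphatase that degrades pyrophosphate, had 1.35 ± 0.132, and Entpd2 had 1.06 ± 0.186. Abcc6, which mediates hepatic ATP release, had 0.85 ± 0.141, the phosphate transporter Slc20a1 had 0.75 ± 0.148 and the calcification inhibitor Mgp had 1.0 ± 0.172. Lower in the pair were Ampd2, an AMP deaminase, at -1.25 ± 0.159, the gap junction gene Gjb1 at -0.50 ± 0.0854, and Adk, adenosine kinase, at -0.37 ± 0.0616. The limma adjusted p of these 8 lay between 0.00151 and 0.0121.

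**Figure D4:**
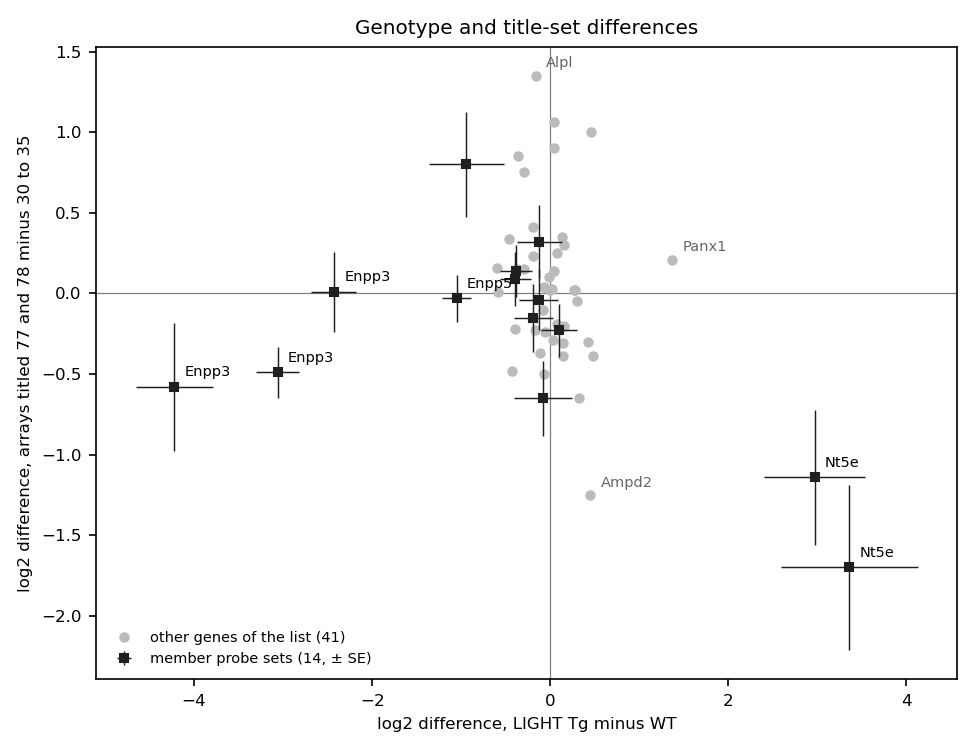
Log2 difference between genotypes (x axis, LIGHT Tg minus WT) against that between the title-number sets (y axis, 77 and 78 minus 30 to 35) for the 14 tested member probe sets (black, ± SE) and 41 other genes of the list (grey). Enpp3 at 3 probe sets lies far to the left and Nt5e far to the right and low, while the other genes of the list lie between -0.60 and 1.37 on the x axis.

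Markers of the cells that could carry these enzymes were compared in the same fit. In whole liver, fewer cells of a type and less RNA per cell cannot be told apart. The 6 mast cell and basophil markers, of cells that also carry Enpp3, had a summed signal of 1284 to 1717 in WT and 1138 to 1500 in LIGHT Tg, and 0 of the 3 tested passed in limma. With the block 1 of the 3 passed, where 7.15% of all genes did. This was Cpa3, a mast cell protease gene, lower in LIGHT Tg with signals of 523.2, 232.8 and 202.9 in WT and 167.5, 102.5 and 127.1 in LIGHT Tg. Its LIGHT Tg mean log2 signal of 7.02 lay under the filter of 7.387, so Cpa3 was tested through its WT signals. Kit and Gata2 had log2 differences of 0.13 ± 0.387 and 0.00 ± 0.202. The defining genes Ms4a2, Fcer1a and Mcpt8 lay below the filter, with 0.63, 0.30 and 0.39, and the groups of these 5 genes overlapped. The hepatocyte markers summed to between 104800 and 109400 in WT and 104400 and 109600 in LIGHT Tg, and none of 6 passed.

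Of the 6 endothelial markers 2 rose and 4 did not pass, where 0.839% of all tested genes were called higher. Their summed signal was 6159 to 7273 in WT and 9619 to 12320 in LIGHT Tg, and the 2 that rose were Lyve1 and Vwf. Vwf had 147.6, 153.0 and 193.5 in WT and 734.2, 791.9 and 1073 in LIGHT Tg. The WT mean log2 signal of Vwf, 7.35, lay under the filter of 7.387, so it was tested through its LIGHT Tg signals. With the block 3 of the 6 passed, all higher in LIGHT Tg, where 7.15% of all genes passed in either direction. The marker added was Stab2. At Stab2 and Clec4g every LIGHT Tg value lay above every WT value, as at 8.17% of all tested probe sets. Pecam1 and Kdr overlapped between the genotypes, as did Entpd1, which endothelium carries too. The bile duct markers summed to 732.6 to 6224 in WT and 413.7 to 3943 in LIGHT Tg, with Epcam high in the pair of both genotypes. The Kupffer cell and macrophage markers summed to 22590 to 25280 in WT and 15970 to 25780 in LIGHT Tg, and the stellate cell markers to 13750 to 17140 and 14180 to 15010, and no gene of these lists passed. Of the B and plasma cell markers 2 were tested and of the neutrophil markers 2, and none passed with or without the block. No T and NK cell marker reached the filter. In these 3 lists Jchain alone had every LIGHT Tg value above every WT value, and the groups of the other genes overlapped. The part of any cell type in the Nt5e and Enpp3 differences was not tested.

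The 5 genes whose profiles over the 6 arrays were nearest to that of Enpp3 at 1427302_at were Ildr2, Il1rap, Etnppl, Gas2 and Cyp2c50. The measure was the root mean square difference of log2 signals, each less the mean of its probe set, over 11563 genes. It was 0.209 for Ildr2, 0.267 for Il1rap, 0.288 for Etnppl, 0.342 for Gas2 and 0.372 for Cyp2c50. Ildr2 had 1787, 1877 and 1649 in WT and 193.4, 227.3 and 203.1 in LIGHT Tg. Cyp2c50, a P450 gene, had 12870, 18350 and 17250 against 2459, 2246 and 1378. All 5 were low in the same 3 arrays as Enpp3, which the likeness to a profile with this shape requires.

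**Figure D5:**
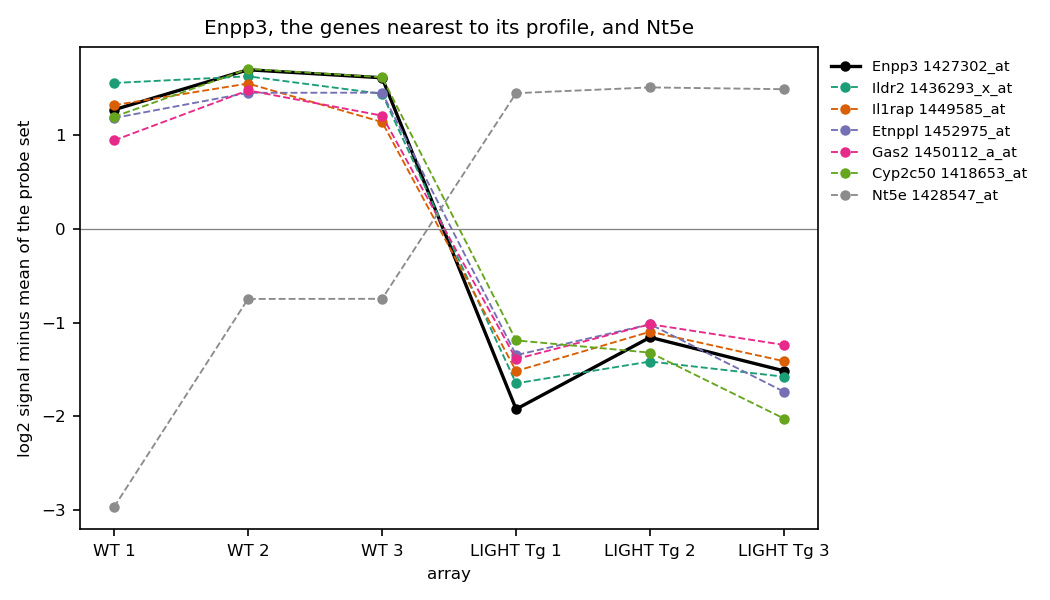
Log2 signal minus the mean of the probe set on each of the 6 arrays (x axis) for Enpp3 at 1427302_at (black), the 5 genes nearest to it and Nt5e at 1428547_at (grey); lines only join the points of a probe set. Enpp3 and the 5 genes are high in WT 1 to 3 and low in LIGHT Tg 1 to 3, and Nt5e runs the opposite way with WT 1 lowest.

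Enpp3 lies beside Enpp1 on chromosome 10 in the RefSeq order of GRCm38.p6. Of the 5 nearest genes with a tested probe set on each side, 1 of 10 passed between the genotypes, where 1.36% of all tested genes did. Vnn3, a pantetheinase, rose by 1.20 ± 0.132, with signals of 2171, 2367 and 2557 in WT and 5518, 5012 and 5810 in LIGHT Tg (limma adjusted p = 0.0114). It lies 21 protein-coding genes from Enpp3. Med23, next to Enpp3, and Arg1, beyond it, had -0.32 ± 0.287 and -0.12 ± 0.0936 and did not pass. With the block 4 of 10 passed, where 7.15% of all genes did. They were Vnn3, Vnn1, Stx7 and Ccn2, the last 3 named after their values were seen. Ccn2, on the far side of Enpp1, had -1.03 ± 0.295 (limma adjusted p = 0.215, and 0.0498 with the block).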

How the data were processed

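The authors deposited MAS5 intensity values, 1 linear signal per probe set and array, for 3 WT and 3 LIGHT Tg livers. The submitters' processing notes name MAS5, but no source used here gives its version, scaling target or detection calls, so no probe set could be called absent. Genes were named from the array's annotation table, and members were matched by symbol. Probe sets annotated with more than 1 symbol named no gene.

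Log2 was taken after signals below 1 were raised to 1. The 22519 non-control probe sets with a mean log2 signal at or above the median (7.387) entered limma 3.58.1 under R 4.3.3, using linear models and moderated statistics with a variance trend. Tests were two-sided, with Benjamini-Hochberg adjustment over all of these and a 5% FDR threshold. Members below the filter take their values from the fit with no filter. Title-number sets entered as a block, a contrast or an interaction. Exact permutation of 3 against 3 arrays cannot go below p = 0.1. The number of arrays limits the precision. Replicate numbers follow listing order and pair no arrays.

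The members and lists were chosen with earlier results of these data known. The genes to be named are every member, pathway genes past the threshold (at most 8 per fit), the 5 profiles nearest to Enpp3 and its neighbours past the threshold. Other genes were named for their role or position (marker genes, Entpd8, Entpd2, Med23, Arg1) or after their values were seen. The steps were tested on simulated data. Plots were made in matplotlib 3.10.9.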

Additional observations from a re-analysis of the deposited data

How the results depend on the processing

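No paired analysis was possible because replicate numbers follow listing order; the sets of title numbers served as a block instead. In LIGHT Tg against WT, 4 member probe sets passed, and this became 8 with array weights, 7 in the arrays titled 30 to 35 alone and 2 to 5 when single arrays were left out (2 without WT 3 or LIGHT Tg 3, 5 without WT 1). It was 3 with no filter or without the trend. Pathway genes went from 0 to 3 with array weights, 3 with the block and 1 in the arrays titled 30 to 35. Over all 22519 probe sets 264 were called, 1992 with array weights, 1457 with the block, 956 in the arrays titled 30 to 35, 148 without the trend and 43 to 306 with an array left out. Between the title-number sets 1 member probe set passed. This was 3 with no filter, 2 with a filter at the 75th percentile or a shared median, 0 without the trend, with robust fitting, with array weights or with the set alone, and 0 to 2 with an array left out. Pathway genes in that contrast numbered 10, and 6 when the probe sets of a gene were averaged. All calls there numbered 6163, with 3632 under array weights, 3523 with the set alone, 3465 with the stricter filter and 2698 to 4632 with an array left out. The interaction gave 0 members, and 1 with robust fitting (Nt5e at 1428547_at).

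Of the genotype differences of single member probe sets under the alternatives, 9 changed sign, all of them at probe sets that did not pass. Enpp4 at 1434580_at became 0.029 with array weights and 0.068 in the arrays titled 30 to 35, and ran from -0.40 to 0.21 with an array left out. Entpd1 at 1423326_at became -0.0024 with array weights and ran from -0.023 to 0.21. Entpd5 ran from -0.40 to 0.038 at 1417382_at and from -0.35 to 0.034 at 1451765_a_at. Between the sets 13 changed sign. Enpp3 at 1452384_at became -0.025 with a shared median and ran from -0.53 to 0.55 with an array left out, at 1425353_at from -0.081 to 0.0046 and at 1439260_a_at from -1.56 to 0.40. Enpp5 ran from -0.18 to 0.11. Entpd5 ran from -0.19 to 0.83 at 1417382_at, -0.087 to 0.36 at 1417383_at, -0.26 to 0.44 at 1417384_at and -0.49 to 0.20 at 1451765_a_at. The cause of these changes was not tested. An offset of 37.5 before log2 and quantile normalization left the member counts of both contrasts as they were. Low signals, with no detection calls, limit what the 6 probe sets below the filter can show.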
